A study of Homo sapiens with 3 samples.

Results

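The keratin gene family was described in FaDu cells, a long-established line of squamous hypopharyngeal carcinoma, with and without the greater celandine extract NSC-631570. A keratin gene was any gene whose symbol is KRT, a number and at most a letter A to C, and only probe sets that name this gene alone were used. This gave 47 keratin genes with 67 probe sets, of 18132 genes named on the arrays, 26 of type I and 21 of type II. Of 55 keratin genes in RefSeq, 8 had no probe set of their own here: KRT16 and KRT34 were named only together with other genes, and KRT6A, KRT6B, KRT17, KRT81, KRT82 and KRT86 were not analysed here. RNA had been hybridised to Affymetrix PrimeView arrays, 1 of cells kept for 48 h with 10 µg/ml NSC-631570, a dose the submitters describe as half-maximally effective, and 2 of cells kept for 48 h with distilled water. All cells are of the same line and were grown in medium with 10% fetal calf serum. The treated condition has no replicate, and the labels do not say that the untreated arrays came from separate cultures, so the spread behind the p-values may be technical only.

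Keratins are the intermediate filament proteins of epithelial cells, and each filament is built from pairs of an acidic type I and a basic type II keratin. Which pairs a cell makes marks its kind and stage. KRT8 and KRT18 are the pair of simple epithelia, KRT5 and KRT14 that of the basal layer of stratified epithelia, KRT4 and KRT13 that of upper layers of mucosa, and KRT1 and KRT10 that of upper layers of skin. Squamous carcinoma lines often make simple and stratified keratins together, and keratin filaments are anchored at desmosomes by plakin proteins.

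The treated array held less signal for the simple pair KRT8 and KRT18 and for KRT5 on every tested probe set, and less for KRT80, beside more for KRT7, a simple keratin, and KRT14, a basal one. With 1 probe set a gene, no keratin gene passed the test (0 of 16 tested by limma with Benjamini-Hochberg adjustment, lowest adjusted p = 0.131, beside 0.067% of all 11932 tested genes called). At an unadjusted p under 0.05 there were 5 of 16, KRT7 and KRT14 higher and KRT18, KRT80 and KRT8 lower, beside 12.2% of all tested genes higher and 2.25% lower. The share of keratins that were higher is near that of all tested genes. With every probe set fitted on its own, 3 keratin probe sets fell, 1 of KRT5 and 2 of KRT8, beside 2.92% of all tested probe sets called, in an array that also read the 5′ part of ACTB 2.59-fold lower. The 3′ control of ACTB stood at a log2 difference of 0.20 in this array, and the 5′ control of GAPDH was 1.39-fold lower. The part of these controls in the keratin values was not tested. In such bulk RNA, fewer cells of a type and less RNA per cell cannot be told apart.

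A gene was tested when its brightest probe set had a mean log2 signal of at least 5.85, the 40th percentile of all probe sets. This kept 16 keratin genes and left out 31. The 31 stayed between 3.47 and 5.91 in all arrays, and none lay 2-fold beyond both untreated arrays. Of the tested genes 8 were higher and 8 lower than the untreated mean, with a median log2 difference of −0.07, where 66.0% of all tested genes were higher and their median was 0.12. In 8 of 16 the treated array lay below both untreated arrays (22.5% of all tested genes) and in 5 it lay above both (51.7%). No keratin gene lay 2-fold beyond both (1.11% of all tested genes), while KRT14 lay 1.5-fold above both (5.84%), and KRT18 and KRT80 lay 1.5-fold below both (1.23%). The median gap between the untreated arrays was 0.26 in these 16 genes and 0.18 in all tested genes.

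**Figure D1:**
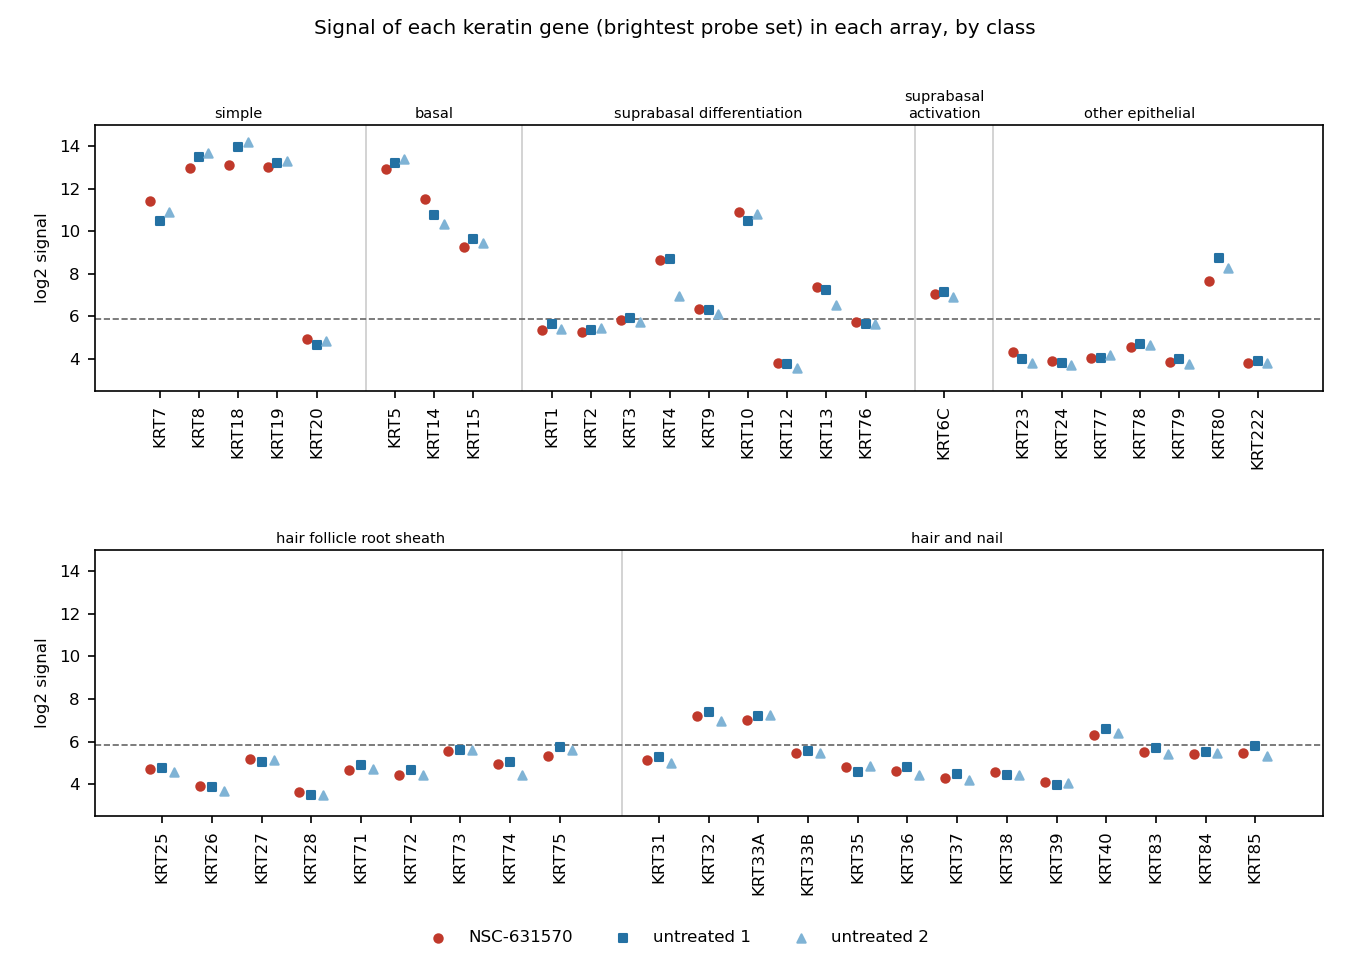
Log2 signal (vertical axis) of the brightest probe set of each of 47 keratin genes in the NSC-631570 array (circles) and untreated arrays 1 (squares) and 2 (triangles), grouped by class, with the filter at 5.85 dashed. All 9 root sheath genes and 10 of 13 hair and nail genes lie below the filter, and heights of different genes are not comparable.

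Sequence before the start is shown for KRT5 and KRT8, the genes with probe sets past the threshold. Both are 250 bases long, read 5′ to 3′ from RefSeq's table for GRCh38.p14, and end at the base before the annotated start. Capitals mark matches to any of 5 motifs on either strand: ATAAA (TATA-like core), GGGCGG (GC box), TGACTCA (AP-1 site), GCCNNNGGC (AP-2 site) and GCGTG (core of the xenobiotic response element).
KRT5, chr12:52520395-52520644, minus strand: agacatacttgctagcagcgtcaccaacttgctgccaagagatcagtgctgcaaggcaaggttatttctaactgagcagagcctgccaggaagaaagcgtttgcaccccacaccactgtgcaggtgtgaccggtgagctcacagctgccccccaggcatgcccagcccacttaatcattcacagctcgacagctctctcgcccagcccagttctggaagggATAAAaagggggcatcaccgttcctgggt
KRT8, chr12:52926470-52926719, minus strand: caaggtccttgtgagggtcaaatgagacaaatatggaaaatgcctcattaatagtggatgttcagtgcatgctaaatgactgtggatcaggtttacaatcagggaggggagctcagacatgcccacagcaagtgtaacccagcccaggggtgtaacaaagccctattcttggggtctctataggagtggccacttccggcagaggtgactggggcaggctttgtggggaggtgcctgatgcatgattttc
KRT5 has an ATAAA that ends 25 bases before the start, and KRT8 has none of the 5 motifs in this window. Of 47 keratin genes 32 matched the table, and 30 of these held ATAAA in the 250 bases, where 33.7% of 27305 promoters did. GGGCGG stood in 4 of 32 keratin promoters and in 42.3% of all, GCGTG in 4 of 32 and 31.9%, GCCNNNGGC in 5 of 32 and 19.7%, and TGACTCA in 0 of 32 and 4.16%. Of the 8 tested keratin genes in the table, KRT9 and KRT40 held GCGTG. A match to letters is a description of the sequence and was not tested as a site. KRT18, KRT14, KRT7 and KRT80 were not among the promoters used here.

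Of the simple keratins, 4 of 5 were tested, and KRT7 stood higher while KRT8, KRT18 and KRT19 stood lower. KRT18, the type I partner of KRT8, had a log2 signal of 13.09 in the treated array, against 13.96 and 14.21 in the untreated arrays. The difference from the untreated mean was −0.99 ± 0.23 (SE from limma, 1 treated and 2 untreated arrays), 1.99-fold lower, with an adjusted p = 0.131. It was larger than the gap of 0.25 between the untreated arrays, and 0.453% of all tested genes lay as low or lower. KRT18 passed the threshold when the prior variance of limma followed the mean signal (adjusted p = 0.0436), a setting that called 31 of all 11932 tested genes in place of 8. Its other probe set had 12.95 in the treated array, against 13.67 and 13.93 in the untreated arrays, a difference of −0.85.

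KRT8, the type II partner, was measured by 8 tested probe sets, and on every one the treated array lay below both untreated arrays. Of 7125 genes with several tested probe sets, 11.9% had every one below both untreated arrays, as KRT8, KRT18 and KRT5 did, and of 129 genes with at least 8 tested probe sets 6.98% had. The 8 differences of KRT8 ran from −1.74 to −0.60 with a median of −1.09. The brightest probe set, 11752634_x_at, stood for the gene in the test: its signal was 12.97 in the treated array, against 13.47 and 13.68 in the untreated arrays (−0.60 ± 0.22, adjusted p = 0.278). It was also the probe set with the smallest difference. Probe set 11755287_x_at had 11.40 in the treated array, against 13.04 and 13.25 in the untreated arrays. It fell 3.35-fold (−1.74 ± 0.23), with an adjusted p = 0.0133 by limma over all 27255 tested probe sets. Probe set 11758184_x_at, with 10.93 in the treated array against 12.03 and 12.51 in the untreated arrays, fell 2.52-fold (−1.33 ± 0.26, adjusted p = 0.0448). The others did not pass, 2 of them with an adjusted p of 0.0507 and 0.0523. All 8 share a target and are not replicates of each other.

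The 10 tested probe sets of KRT8 and KRT18 all carry the suffix x, which Affymetrix gives where probes may bind related sequences. Both genes have processed pseudogenes. A probe set for KRT18P55, a KRT18 pseudogene, had 6.49 in the treated array, against 7.21 and 7.82 in the untreated arrays (−1.03). Signal of the genes and of their pseudogenes cannot be told apart on such probe sets.

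KRT19, a type I keratin of simple epithelia and of the basal layer of mucosa that has almost no tail domain, had 13.02 in the treated array, against 13.21 and 13.29 in the untreated arrays. The difference of −0.23 ± 0.22 did not pass (adjusted p = 0.721). KRT7, a type II keratin of ducts and glands, had 11.42 in the treated array, against 10.48 and 10.88 in the untreated arrays. It stood 1.67-fold higher (0.74 ± 0.25, adjusted p = 0.237), above both untreated arrays, whose gap was 0.40. Of all tested genes 5.56% lay as high as KRT7 or higher. KRT20, of gut and urothelium, lay below the filter with 4.91 in the treated array, against 4.65 and 4.86 in the untreated arrays.

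**Figure D2:**
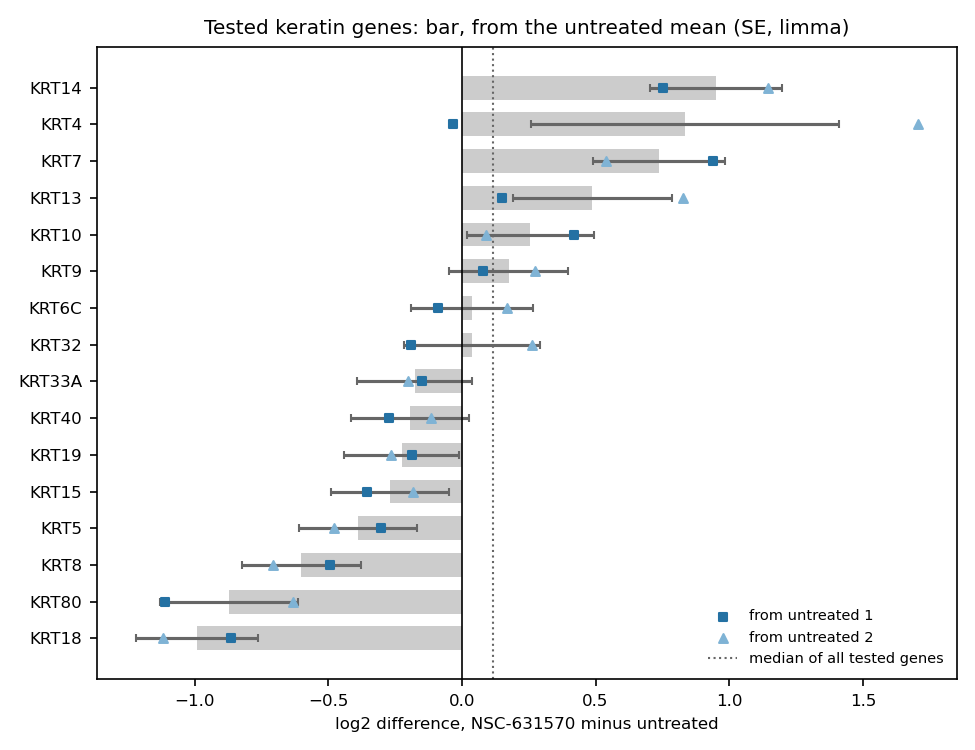
Log2 difference (horizontal axis) of each of 16 tested keratin genes, NSC-631570 minus the untreated mean (bars, SE from limma) and minus untreated array 1 (squares) or 2 (triangles). The dotted line is the median of all tested genes, 0.12. KRT18 at −0.99 and KRT14 at 0.95 are at the ends, and the squares and triangles of KRT4 lie 1.74 apart.

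All 3 basal keratins were tested, KRT14 higher and KRT5 and KRT15 lower, and none passed. KRT14, the type I keratin of basal cells, had 11.49 in the treated array, against 10.74 and 10.35 in the untreated arrays. It stood 1.93-fold higher (0.95 ± 0.25, adjusted p = 0.156), 0.75 above the nearer untreated array, whose distance from the other was 0.39. Of all tested genes 2.43% lay as high as KRT14 or higher. KRT14 has 1 probe set, also with the suffix x. KRT15, a type I keratin of basal cells and hair follicle stem cells, had 9.27 in the treated array, against 9.63 and 9.46 in the untreated arrays (−0.27 ± 0.22, adjusted p = 0.662).

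KRT5, the type II keratin of basal cells, was read very differently by its probe sets. The brightest, 11721258_a_at, had 12.91 in the treated array, against 13.21 and 13.39 in the untreated arrays (−0.39 ± 0.22, adjusted p = 0.478). The other, 11751723_a_at, had 10.18 in the treated array, against 12.49 and 12.47 in the untreated arrays. It fell 4.93-fold (−2.30 ± 0.22, adjusted p = 0.00687 by limma over all tested probe sets). Both probe sets put the treated array below both untreated arrays, but their differences were 1.91 apart, a range that 1.66% of genes with several tested probe sets reached. The range was 1.14 in KRT8 (reached by 10.7% of such genes), 0.36 in KRT4, 0.18 in KRT13, 0.14 in KRT18 and 0.04 in KRT6C, and its median over all such genes was 0.41. The mean of the differences of both KRT5 probe sets was −1.35.

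In all, 17 of 29 tested keratin probe sets lay below both untreated arrays (34.5% of all tested probe sets) and 7 above both (40.7%). At an unadjusted p under 0.05, 12 were lower (9.56% of all) and 3 higher (8.3%). At least 2-fold below both were 5 of 29, 1 of KRT5 and 4 of KRT8 (2.57% of all), and 0 lay 2-fold above both (0.646%). The 12 lower ones were all 8 of KRT8, both of KRT18, 1 of KRT5 and the only one of KRT80. Probe sets of a gene share a target, so these counts are mainly of KRT8 and KRT18 and not of the family.

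**Figure D3:**
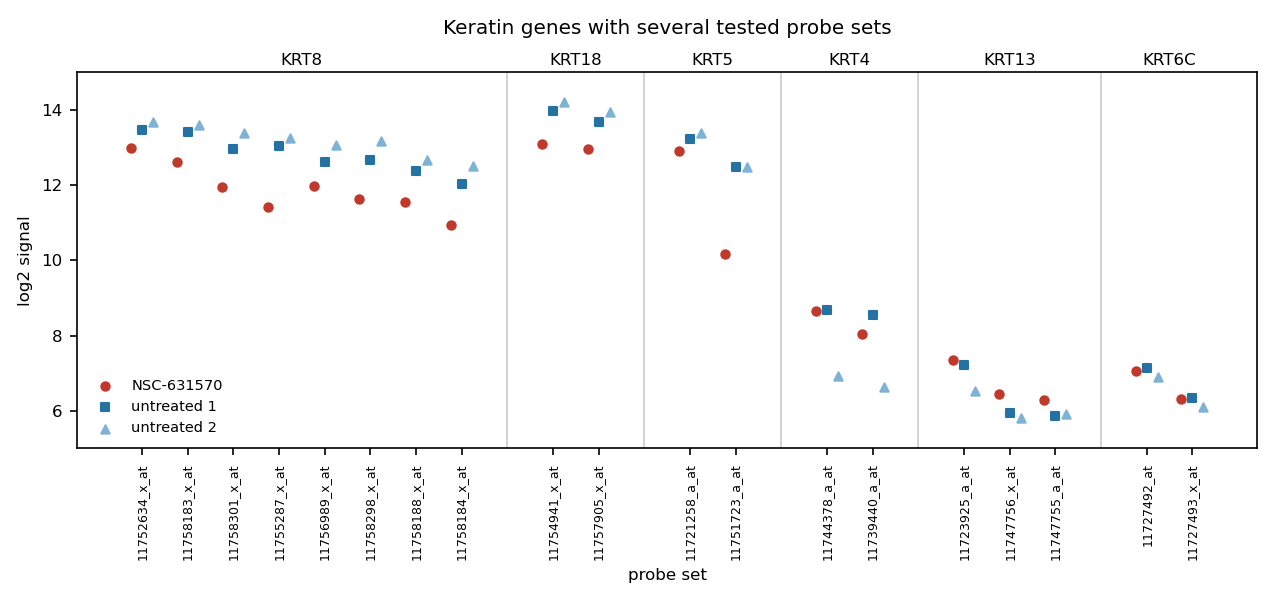
Log2 signal (vertical axis) of each tested probe set of the keratin genes that have several, in the NSC-631570 array (circles) and untreated arrays 1 (squares) and 2 (triangles). All 8 probe sets of KRT8 put the treated array lowest, with differences from −1.74 to −0.60, while the 2 of KRT5 differ by −0.39 and −2.30.

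The treated array also differed in its array controls, which read the 5′ and 3′ parts of a transcript apart. Its 5′ probe set stood below the untreated mean by −1.37 for ACTB and −0.48 for GAPDH. The middle ones stood at −0.09 and −0.20, and the 3′ ones at 0.20 and −0.01. The controls for 18S rRNA were lower in every part, by −1.63 at the 5′, −1.18 in the middle and −1.41 at the 3′ part. Among the 7125 genes with several tested probe sets, the median of the others lay below the brightest in 70.0%, by a median of −0.15. Of probe sets that were not the brightest of their gene 4.39% were at least 2-fold below both untreated arrays, and of the brightest 0.235%. The 3 keratin probe sets that fell were none of them the brightest of their gene. The position of each keratin probe set within its transcript was not used here, and the part of the lower control signals in the values of KRT5 and KRT8 was not tested.

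Of 9 keratins of differentiating upper layers, 4 were tested, all 4 were higher than the untreated mean (66.0% of all tested genes were), and none passed (lowest adjusted p = 0.523). Their median difference was 0.37. KRT4, the type II keratin of upper mucosal layers, had 8.64 in the treated array, against 8.68 and 6.93 in the untreated arrays. The treated value lay between the untreated ones, which were 1.74 apart, so that the difference was −0.04 from untreated 1 and 1.71 from untreated 2 (0.84 ± 0.58 from their mean). The other KRT4 probe set had 8.05 in the treated array, against 8.54 and 6.62 in the untreated arrays.

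KRT13, the type I partner of KRT4, had 7.36 in the treated array, against 7.21 and 6.54 in the untreated arrays (0.49 ± 0.30). All 3 of its probe sets put the treated array above both untreated arrays, with differences from 0.39 to 0.57, as in 18% of genes with several tested probe sets. KRT10, a type I keratin of upper skin layers, had 10.91 in the treated array, against 10.49 and 10.82 in the untreated arrays (0.26 ± 0.24). KRT9, found in the skin of palms and soles, had 6.35 in the treated array, against 6.28 and 6.08 in the untreated arrays. Its other probe set lay below the filter, with 4.54 in the treated array against 4.54 and 4.56 in the untreated arrays. On the brightest probe set of each of these 4, the difference from the untreated mean was smaller than the gap between untreated arrays. This gap had a median of 0.50 in this class. The other probe sets of KRT13 had differences larger than their gaps, 0.57 against 0.12 and 0.39 against 0.07. The other probe set of KRT4 did not, with 0.47 against 1.91.

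The 5 others of this class, KRT1, KRT2, KRT3, KRT12 and KRT76, lay below the filter with differences from −0.16 to 0.17. KRT1, the type II partner of KRT10, had 5.36 in the treated array, against 5.66 and 5.40 in the untreated arrays. KRT3, a corneal keratin, was the nearest to the filter, with 5.81 in the treated array against 5.91 and 5.74 in the untreated arrays.

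Of the keratins of wounded and hyperproliferative epithelium only KRT6C had a probe set of its own, and it had 7.06 in the treated array, between the untreated values of 7.15 and 6.89. A probe set shared by KRT16 and 3 of its pseudogenes had 4.66 in the treated array, against 5.33 and 4.76 in the untreated arrays, all below the filter. KRT6A, KRT6B and KRT17 were not analysed here, so this class was measured by 1 of its 5 genes.

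KRT80, a type II keratin that appears with differentiation in many epithelia, was the 1 tested gene of 7 other epithelial keratins. It had 7.63 in the treated array, against 8.74 and 8.27 in the untreated arrays. It stood 1.83-fold lower (−0.87 ± 0.26, adjusted p = 0.192), −0.63 from the nearer untreated array, and 0.771% of all tested genes lay as low or lower. KRT23, a type I keratin, lay below the filter, with 4.33 in the treated array against 3.99 and 3.80 in the untreated arrays (0.44). It had the largest difference among the 31 genes that were left out.

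Most hair keratins lay below the filter, and none passed the test. None of the 9 root sheath and companion layer genes was tested. Of 13 hair and nail keratins KRT32, KRT33A and KRT40 were tested, with differences of 0.04, −0.18 and −0.19 (lowest adjusted p = 0.775). KRT33A had 7.03 in the treated array, against 7.18 and 7.23 in the untreated arrays, and KRT40 had 6.31, against 6.58 and 6.43, so both lay below both untreated arrays. KRT33A and KRT40 passed the filter only through a probe set with the suffix s, which marks probe sets shared by several transcripts, while their other probe sets lay below it. KRT75, of the companion layer, had 5.33 in the treated array, against 5.76 and 5.60 in the untreated arrays (−0.35), the lowest difference among genes left out.

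Of 8 type II and type I partner pairs considered, 4 had both members tested. They were of the same direction in 2, KRT8 with KRT18 (−0.60 and −0.99) and KRT4 with KRT13 (0.84 and 0.49), and of opposite direction in KRT5 with KRT14 (−0.39 and 0.95) and KRT7 with KRT19 (0.74 and −0.23). The difference of KRT5 minus that of KRT14 was −1.05 from untreated 1 and −1.62 from untreated 2. That of KRT7 minus KRT19 was 1.12 and 0.80, and that of KRT8 minus KRT18 was 0.37 and 0.41. For KRT4 minus KRT13 it turned sign with the untreated array, −0.18 from untreated 1 and 0.88 from untreated 2. No test was made of a difference between partners.

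**Figure D4:**
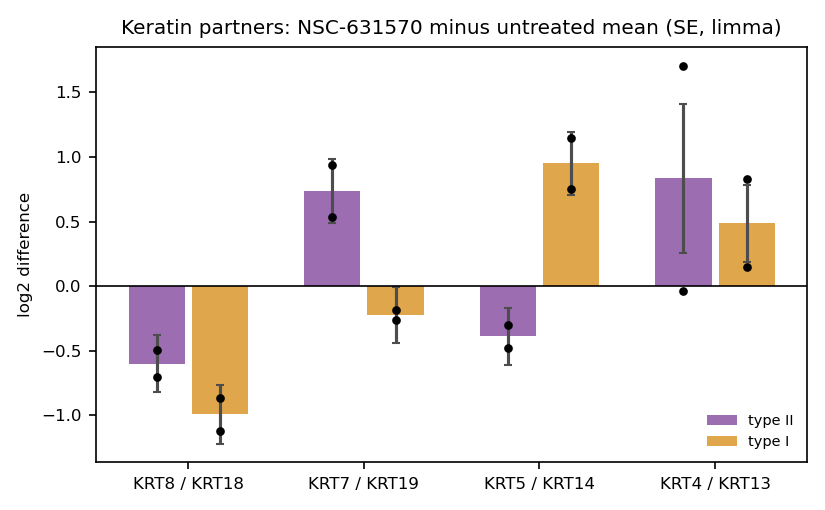
Log2 difference (vertical axis), NSC-631570 minus the untreated mean, of type II (left bar) and type I (right bar) keratin partners, with the SE from limma and dots for the difference from each untreated array. KRT5 at −0.39 and KRT14 at 0.95 lie on opposite sides of 0, and KRT8 at −0.60 and KRT18 at −0.99 on the same side.

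By type, 5 of 10 tested type I genes and 3 of 6 type II genes were higher than the untreated mean. Genes next to each other in the RefSeq table of GRCh38.p14 were of the same direction in some cases and not in others. KRT8 and KRT18 are neighbours on chromosome 12, at the end of the type II cluster, and both were lower. KRT80 and KRT7 are neighbours at its other end and stood at −0.87 and 0.74. On chromosome 17, KRT15 and KRT19 are neighbours and stood at −0.27 and −0.23, and KRT13, on the other side of KRT15, stood at 0.49.

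Genes that act on keratin filaments were read from lists chosen with earlier results of these data known, and 0 members of any of them passed the threshold over all genes. Their counts stand beside 66.0% of all tested genes higher, 12.2% higher and 2.25% lower at an unadjusted p under 0.05, and a median of 0.12. Of 7 tested genes for other intermediate filaments (16 in the list), 4 were lower and 3 higher (median −0.16), with 0 at an unadjusted p under 0.05. They were led by the nuclear lamin gene LMNB2 (−0.33, its other probe set −1.18), SYNM (0.30), GFAP (−0.23) and LMNA (−0.19). Of 12 tested anchors and crosslinkers of filaments, 8 were higher (median 0.18), close to the share of all tested genes, with 1 at an unadjusted p under 0.05. This was PKP1, a desmosomal plakophilin, with 7.93 in the treated array, against 7.43 and 6.54 in the untreated arrays (0.94, adjusted p = 0.272). The plakin gene EVPL stood at 0.51, FAM83H, which takes part in keratin organisation, at 0.34 and EPPK1, which encodes epiplakin, at 0.32. EPPK1 had 9.13 in the treated array, between the untreated values of 9.36 and 8.25. Its direction thus depends on the untreated array, and its other probe set stood at 0.02. PPL stood at 0.07, but its 3 other probe sets had a median of −1.38. PKP3 stood at 0.15 with 1 other at −1.60, and TCHP at −0.01 with 2 others at a median of −1.16. The 2 others of PKP1 had a median of 0.50, and the 1 other of FAM83H stood at 0.24.

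Of 15 tested transcription regulators of keratin genes 8 were higher and 7 lower (median 0.01), with 2 at an unadjusted p under 0.05, both higher, a share near the 12.2% of all tested genes. CEBPA had 7.80 in the treated array, against 6.81 and 6.98 in the untreated arrays (0.90, adjusted p = 0.148). The epithelial ETS factor gene EHF stood at 0.65, although its 6 other probe sets had a median of −0.53, and ELF3 at −0.65 (2 others, median −0.76). GRHL1, a grainyhead factor, stood at 0.51, with 2 others at a median of −0.59. Of 12 tested genes for keratin turnover and modification 9 were higher (median 0.14, beside 0.12 in all tested genes), with 1 at an unadjusted p under 0.05. It was SFN, the 14-3-3 protein sigma that binds keratins, at 0.51 (adjusted p = 0.338). KLHL24, an adaptor for the degradation of KRT14, also stood at 0.51, the transglutaminase gene TGM1 at 0.48 and the ubiquitin ligase gene STUB1 at 0.48.

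The label of a squamous epithelial line was checked against markers. Of 10 squamous markers 9 were named by a probe set of their own and all 9 were above the filter, among them DSG3 and DSC3, and TP63 was not analysed here. Of 6 fibroblast markers COL1A1 and PDGFRB were above it, with differences of 0.06 and 0.05. Of 5 leukocyte markers 4 were named, and CD68, CD14 and CD3E were above the filter, while PTPRC, the marker shared by leukocytes, had 3.78 in the treated array, against 3.72 and 3.72 in the untreated arrays. The summed level of the leukocyte markers was 9.95 on the log2 scale in the treated array, against 8.66 and 8.99 in the untreated arrays. It was led by CD68 (1.46, not past the threshold), whose other probe set stood at 0.57. Of 4 endothelial markers 3, and of 3 melanocyte markers 2, were above the filter, with differences between −0.27 and 0.09. The part of these genes in the keratin values was not tested.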

How the data were processed

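Total RNA of 1 culture with NSC-631570 and of 2 untreated samples was measured on PrimeView arrays. The authors deposited 1 log2 signal per probe set and array, made with Affymetrix Expression Console per the submitters' processing notes. Algorithm, normalization and version were not given in the sources used here, while the log2 scale was inferred from the range of the values. The deposited values were used as given. Array medians were 6.55 in the treated array and 6.62 and 6.57 in the untreated arrays, and precision is limited by having 3 arrays.

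Of 49395 probe sets 44994 named 1 gene in the platform annotation, 1832 several and 2569 none, controls included. Each gene stood for its brightest probe set, and genes whose mean fell under the 40th percentile of the array were dropped. limma 3.58.1 in R 4.3.3 compared the groups over all 11932 tested genes, and again over 27255 probe sets, adjusting p-values by Benjamini-Hochberg and calling those under 0.05. Only the untreated arrays give a residual (1 degree of freedom), which limma moderates toward a prior SD of 0.19 (6.95 degrees of freedom), taking the lone treated array to be as variable as they are. A further rule counted genes beyond both untreated arrays by 2-fold or 1.5-fold. No detection was called. The members and lists were chosen with earlier results of these data known. All keratin genes past the filter were named, and of each list of filament genes up to 4 tested members with the largest difference. PPL, PKP3 and TCHP were named for their other probe sets.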

Additional observations from a re-analysis of the deposited data

How the results depend on the processing

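No paired analysis was possible because the groups share only 1 replicate number. The count of 0 keratin genes past the threshold was also found with quantile normalization, centring on all probe sets or on tested genes, no filter, a filter at the 60th percentile, averaged probe sets, and probe sets without the suffixes x and s preferred. The last setting left KRT8, KRT18 and KRT14 on the same probe sets, since all of theirs carry the suffix x. For these genes it could not check the binding of related sequences. Of these settings, it was the last one only that had this limit. The count of keratin genes past the threshold was 2 (KRT5 and KRT8) with each probe set on its own, where 795 of all 27255 were called. With a trend in the prior variance it was 1 (KRT18), where 31 of all 11932 genes were called, in place of 8. The count 2-fold beyond both untreated arrays, 0 as reported, was 1 (KRT18) after centring on tested genes, 1 with averaged probe sets (KRT5), 2 with each probe set on its own and 3 at 1.5-fold. Leaving out an untreated array gave 3 without replicate 1 (KRT4, KRT14 and KRT18) and 1 without replicate 2 (KRT80), with no test. The median of the 16 tested keratins, −0.07, was −0.27 after centring on tested genes. Under this scaling the median of all tested genes was −0.08 in place of 0.12. Without an untreated array the keratin median was between −0.17 and −0.01. Some settings changed which keratins were tested. The median was −0.25 over 10 genes with the filter at the 60th percentile, and −0.23 over 29 probe sets each on its own. It was 0.0053 over 14 genes with averaged probe sets. With probe sets without the suffixes x and s preferred it was 0.04, also over 14 genes. These medians are therefore not of the same genes as the main one. After centring on tested genes KRT32 and KRT6C turned to −0.16 and KRT9 to −0.022. Of the other values of single genes, 162 kept their direction and side of the threshold or lay within the spread between untreated arrays. No probe set had a detection call, which limits what can be said of keratins near the filter.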
